A study of Saccharomyces cerevisiae with 8 samples.

Results

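The mitochondrial ribosomal protein genes of budding yeast, Saccharomyces cerevisiae, were followed in RNA sequencing of RAD27 knockout and wild-type cells at a warm and a standard growth temperature. The members are all genes whose standard name in the R64 annotation is MRP, MRPL, MRPS or RSM followed by a number. This rule took 67 of the 6692 genes counted, and it used no measured value. Of the 67, 38 belong to the large subunit and 28 to the small subunit. The last, MRP8, carries the name but is not annotated as a ribosomal subunit. The 4 groups were RAD27 knockout at 37 °C (KO 37 °C), RAD27 knockout at 30 °C (KO 30 °C), wild type at 37 °C (WT 37 °C) and wild type at 30 °C (WT 30 °C), with 2 libraries each. Cultures of all groups had grown overnight at 30 °C in YPD, a rich glucose medium, and were then diluted into fresh YPD and kept for 4 hours at 37 or 30 °C. The RAD27 product is a nuclease that removes the 5′ flap of an Okazaki fragment so that the fragments can be ligated, and the series asks which changes in gene expression go with its loss. The sources used here give neither the strain background nor how the knockout was made, nor whether the knockout libraries come from 1 clone or the libraries of a group from separate cultures. Each p therefore measures the spread between these libraries, which may be technical.

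Mitochondria translate a handful of mRNAs from their own DNA, mostly core subunits of the respiratory chain and of ATP synthase. They do so on a ribosome of bacterial descent. In yeast nearly all of its proteins are encoded in the nucleus, made in the cytosol and imported, and its RNAs and the small-subunit protein Var1 come from mitochondrial DNA. Its proteins fall into those shared with all ribosomes, those shared with bacteria and those found in mitochondria alone. Many of their mRNAs carry a site after the stop codon for Puf3, an RNA-binding protein of the Pumilio family that acts on their translation, decay and delivery to mitochondria. In glucose medium yeast ferments, and respiratory genes are partly repressed.

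All 4 knockout libraries held 0 counts of RAD27, against 511 and 479 counts in the WT 37 °C libraries and 533 and 531 in the WT 30 °C libraries. Library totals lay between 4734266 and 5588983 counts. All 67 members passed the filter on low counts, with the lowest member of a library at 52 to 88 counts and the highest at 538 to 800. Between the 2 libraries of a group, chi-square per degree of freedom over the members was 1.69 in KO 37 °C, 2.38 in KO 30 °C, 1.17 in WT 37 °C and 1.51 in WT 30 °C, where counting error alone gives 1. Over all genes it was 8.73, 4.03, 1.86 and 2.54 in the same groups, a lower value for the members beside a genome that includes far more abundant genes. Values are given in CPM, counts scaled by library total and TMM factor to a common size, which sets the libraries so that most genes do not change between them. A level is therefore relative to the other RNA of the library, and a change in RNA per cell cannot be read from it.

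The members lie on 14 chromosomes, with coding lengths of 213 to 1887 bases, and 1 of them, MRPL44, has an intron. MRPS12 and RSM19 are the only neighbouring pair, 229 bases apart on the minus strand of chromosome XIV. Family names, which give the class of a ribosomal protein, are annotated for 65 members. Of these, 27 are universal (u), 14 are shared with bacteria (b) and 24 are of mitochondria alone (m). The exceptions are MRP8 and RSM22, a small-subunit member whose product is described as a methyltransferase. No member had a near-identical copy elsewhere in the genome. MRP4, MRPL19 and MRPL51 overlap another annotated reading frame by 2, 113 and 323 bases, so their counts are uncertain to that extent.

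What these genes share most clearly in sequence is the Puf3-type motif TGTANATA, read on the coding strand within 200 bases after the stop codon. It was found after 65 of 67 members (97.0%), against 14.1% of the 5988 nuclear genes with such a window and 4.35% of the 138 cytosolic ribosomal protein genes. The members without it are MRP8 and RSM22, so every member with a ribosomal family name had it. A single site followed 52 members, 2 sites followed 12 members, and 3 sites followed RSM19, at bases 10, 38 and 66 after its stop codon. The 79 sites began 8 to 165 bases after the stop codon, with a median of 55. The base 2 before the motif was C at 65.8% of the members' sites, against 24.2% of the 843 sites after other genes. The open position of the motif, N, was A at 45.6% and T at 31.6% of the members' sites, against 26.6% and 51.1% after other genes. MRPL24 and RSM24 have 2 sites each, of which only the first is printed below. Sites of 8 members with large rises or falls, or with the highest level, follow from the R64 genome. They are given 5′ to 3′ on the coding strand, with the motif in capitals. Members that rose (MRP49, MRPL24, RSM24) and members that fell (MRPL20, MRPL32) after the temperature step in the knockout both have it. With 65 of 67 members carrying the motif, its presence cannot tell rises from falls.
MRP49: aagtttgttcaTGTATATAtcaaaaaacat
MRPL24: tggttttccccTGTATATAaaaaagcatat
RSM24: aacggccccccTGTATATAttatgtatttg
MRPL16: ccatgtatacaTGTATATAactattgaaaa
RSM10: gatttcgtactTGTAAATAaaataggtgaa
MRPS12: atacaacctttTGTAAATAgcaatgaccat
MRPL20: aataacaatcgTGTAAATActactctataa
MRPL32: aaacttaagccTGTATATAgaaacttaatt
The windows lie at chrXI:133678-133707 on the minus strand (MRP49), chrXIII:650856-650885 on the plus strand (MRPL24), chrIV:813142-813171 on the minus strand (RSM24) and chrII:146900-146929 on the plus strand (MRPL16). The others lie at chrIV:540462-540491 on the plus strand (RSM10), chrXIV:694269-694298 on the minus strand (MRPS12), chrXI:599049-599078 on the minus strand (MRPL20) and chrIII:119206-119235 on the plus strand (MRPL32). A match of these letters is a description and not a shown binding site, and a window can run into a neighbouring gene.

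**Figure D1:**
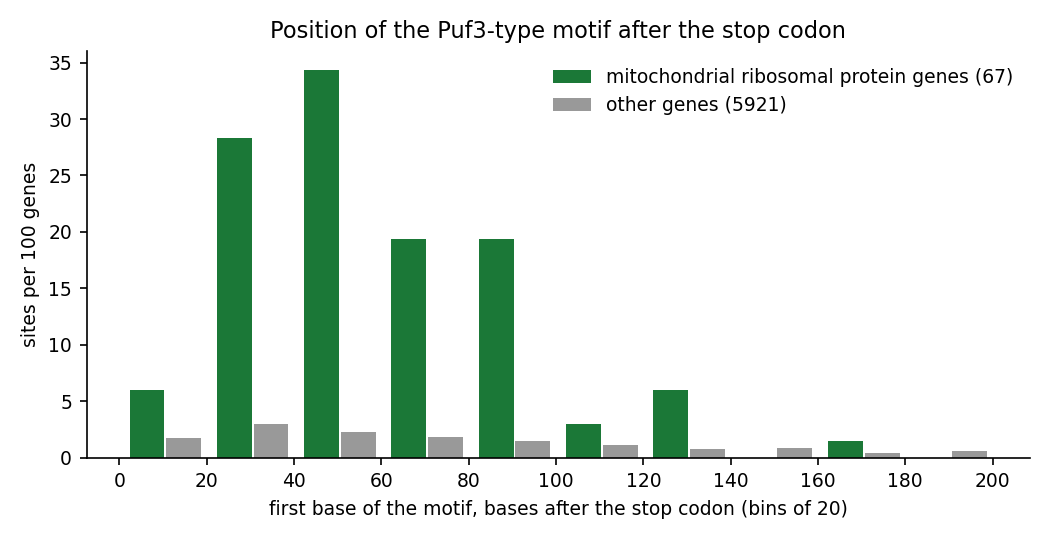
Position of the Puf3-type motif after the stop codon, in bins of 20 bases (x axis), as sites per 100 genes (y axis), for the 67 members (green) and the other 5921 nuclear genes (grey). The members' sites are most frequent from base 41 to 60, with 34.3 sites per 100 genes against 2.31 in other genes.

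The same motif followed all 12 mitochondrial ribosomal protein genes with other names and all 13 mitochondrial tRNA synthetase genes, but 5 of 38 respiratory chain genes (13.2%). Upstream, in the 250 bases before and 50 bases after the start codon on both strands, the Reb1-type motif TTACCCG was found in 14.9% of members and 7.10% of all genes. The Abf1-type motif was found in 26.9% of members and 14.4% of all genes. Reb1 and Abf1 are general regulatory factors that keep promoters open. CCAAT, the core bound by the Hap2/3/4/5 complex that activates respiratory genes, was found in 41.8% of members and 43.3% of all genes. The shares were 2.99% of members and 2.91% of all genes for CACGTG. In the same order they were lower in members for AATTTT (41.8% and 51.7%), AAAATTTT (7.46% and 9.02%, within the AATTTT matches), GATGAG (16.4% and 20.4%) and the stress element CCCCT (16.4% and 21.7%). In the 250 bases before the start codon alone, CCCCT was found in 10.4% of members and 18.8% of all genes, and AAAATTTT in 2.99% and 8.65%.

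Levels of the subunit genes were close to each other. Per kb of coding length, the median of the 66 members other than MRP8 was 74.4 CPM in KO 37 °C, 69.2 CPM in KO 30 °C, 64.9 CPM in WT 37 °C and 67.3 CPM in WT 30 °C. In those groups 63, 57, 62 and 63 of the 66 lay within 2-fold of the median. The highest subunit gene in every group was MRPS12 (uS12m), the counterpart of the decoding-centre protein S12 of bacteria, with 196 CPM per kb in KO 37 °C and 153 CPM per kb in WT 30 °C. MRPL33 (uL30m) had 138 CPM per kb in KO 37 °C and 126 in WT 30 °C, and RSM18 (bS18m) had 137 in KO 37 °C and 124 in WT 30 °C. At the low end, MRPS5 (uS5m) had 32.7 CPM per kb in KO 37 °C and 33.4 in WT 30 °C. MRPL24 (bL28m) had 40.9 CPM per kb in KO 37 °C and was the lowest in WT 30 °C, with 29.3. MRP35 (bL35m) had 41.2 CPM per kb in KO 37 °C and 34.6 in WT 30 °C, MRPL35 (mL38) had 36.6 and 40.1, and RSM22 had 39.7 and 34.7. The order of levels per kb was much the same across groups, with a Spearman correlation across the 66 genes of 0.877 between KO 37 °C and WT 30 °C, and of 0.894 to 0.960 between the 2 libraries of a group. These genes share their lengths in both groups and are not independent replicates.

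**Figure D2:**
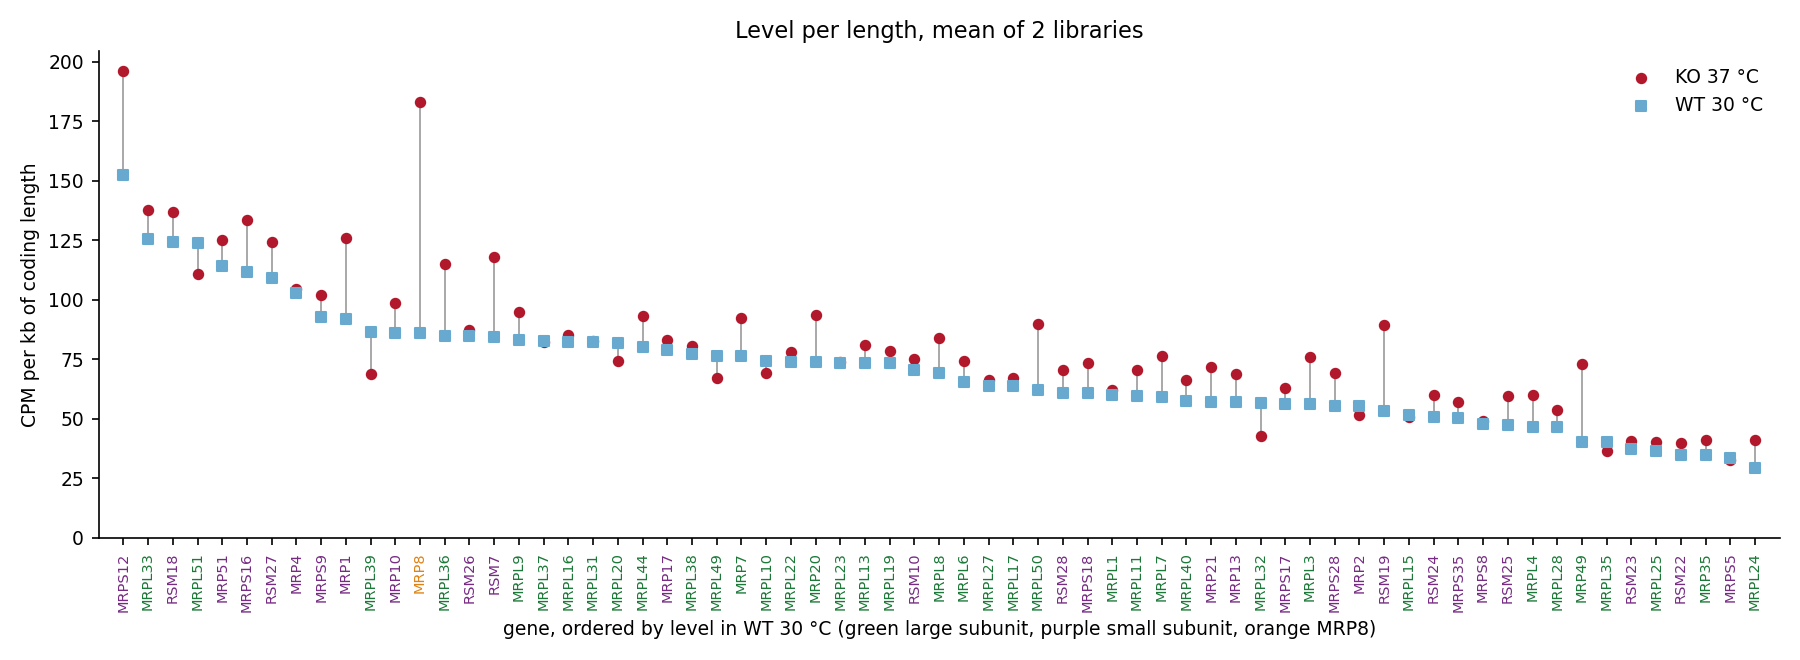
Level of each member per kb of coding length (y axis, CPM per kb, mean of 2 libraries) in KO 37 °C (red circles) and WT 30 °C (blue squares), ordered by the level in WT 30 °C (x axis; green names large subunit, purple small subunit, orange MRP8). MRPS12 is highest in both groups, and MRP8 stands at 183 CPM per kb in KO 37 °C against 86.0 in WT 30 °C.

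In the knockout at 37 °C the mitochondrial ribosomal protein genes stood slightly higher than in wild type at 37 °C. With edgeR's quasi-likelihood test and Benjamini-Hochberg adjustment over 5667 genes, threshold 0.05, 25 of 67 members were higher and 0 were lower. Over all genes 30.5% were higher and 29.2% lower (59.8% in either direction), so the share of members called higher (37.3%) was near the background, while none of the members stood among the genes called lower. The 0 falls stand beside 0 members lower at an unadjusted p under 0.05, and 0 lower by limma-voom and by DESeq2, and 1 was lower without replicate 1 of KO 37 °C. The rises were small. The members' median log2 fold change was 0.19 against 0.01 over all genes, and their interquartile range was 0.23 against 0.69. With 1 library left out the median lay between 0.11, without replicate 1 of KO 37 °C, and 0.22. Of the large-subunit genes 12 of 38 (31.6%) were higher, and of the small-subunit genes 12 of 28 (42.9%), with medians of 0.17 and 0.25. By class, 12 of 27 universal, 4 of 14 bacterial and 8 of 24 mitochondrial proteins had a gene that rose, 28.6 to 44.4% of a class beside the 30.5% of all genes.

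MRP8 rose most. It had 117 and 125 CPM in KO 37 °C and 54.0 and 60.0 CPM in WT 37 °C, a log2 fold change of 1.09 ± 0.09 (SE, adjusted p = 5.86e-07, edgeR). Next came RSM10 (uS10m), the counterpart of S10 of bacteria, with 45.8 and 46.4 CPM in KO 37 °C and 33.5 and 29.6 CPM in WT 37 °C (0.55 ± 0.11, adjusted p = 0.000773, edgeR). MRPL16 (uL16m), whose bacterial counterpart lies beside the peptidyl transferase centre, had 58.0 and 61.1 CPM in KO 37 °C and 40.2 and 45.3 CPM in WT 37 °C (0.48 ± 0.10, adjusted p = 0.00161, edgeR). For all 3 genes the libraries of the groups did not overlap. RSM24 (mS35), a small-subunit protein of mitochondria alone, had 57.7 and 57.5 CPM in KO 37 °C and 43.2 and 40.2 CPM in WT 37 °C (0.47 ± 0.09). MRP20 (uL23m), whose bacterial counterpart sits at the exit of the peptide tunnel, had 68.8 and 79.1 CPM in KO 37 °C and 50.2 and 57.6 CPM in WT 37 °C (0.46 ± 0.11). The other 20 genes that rose had log2 fold changes of 0.23 to 0.45.

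The members with the lowest fold changes did not pass the test. MRPL39 (bL33m) had 16.1 and 13.2 CPM in KO 37 °C and 19.9 and 14.7 CPM in WT 37 °C. MRPL51 (mL43) had 48.5 and 45.4 CPM in KO 37 °C and 51.9 and 58.1 CPM in WT 37 °C. The groups overlap for the first gene and not for the second. Their log2 fold changes were -0.25 ± 0.22 and -0.23 ± 0.11. MRPL37 (mL54) was at -0.13 ± 0.14, MRPL35 (mL38) at -0.11 ± 0.11 and RSM23 (mS29), the counterpart of DAP3 of human mitochondria, at -0.10 ± 0.09. These last values are near 0, and their sign changed for MRPL35 and RSM23 when libraries were scaled by their totals alone and for MRPL37 without replicate 2 of KO 37 °C.

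Fewer rises at 37 °C were called without either library of WT 37 °C and without replicate 1 of KO 37 °C. Over all genes the number called higher was clearly smaller without either library of WT 37 °C, but nearly unchanged without replicate 1 of KO 37 °C. Without replicate 1 of KO 37 °C the members' median stood 0.12 above that of all genes, against 0.18 with all 8 libraries. The members' median log2 fold change was 0.14 without replicate 1 of WT 37 °C and 0.22 without replicate 2. DESeq2 called 10 members higher and scaling by library totals alone 37, with 0 lower in both. Under that last scaling the median over all genes was itself 0.14 above 0, and the members' median stood 0.18 above that of all genes under both scalings. RSM10, MRPL16, RSM24, MRPL7, MRP8, MRPL3 and MRP51 passed under all 19 alternatives.

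**Figure D3:**
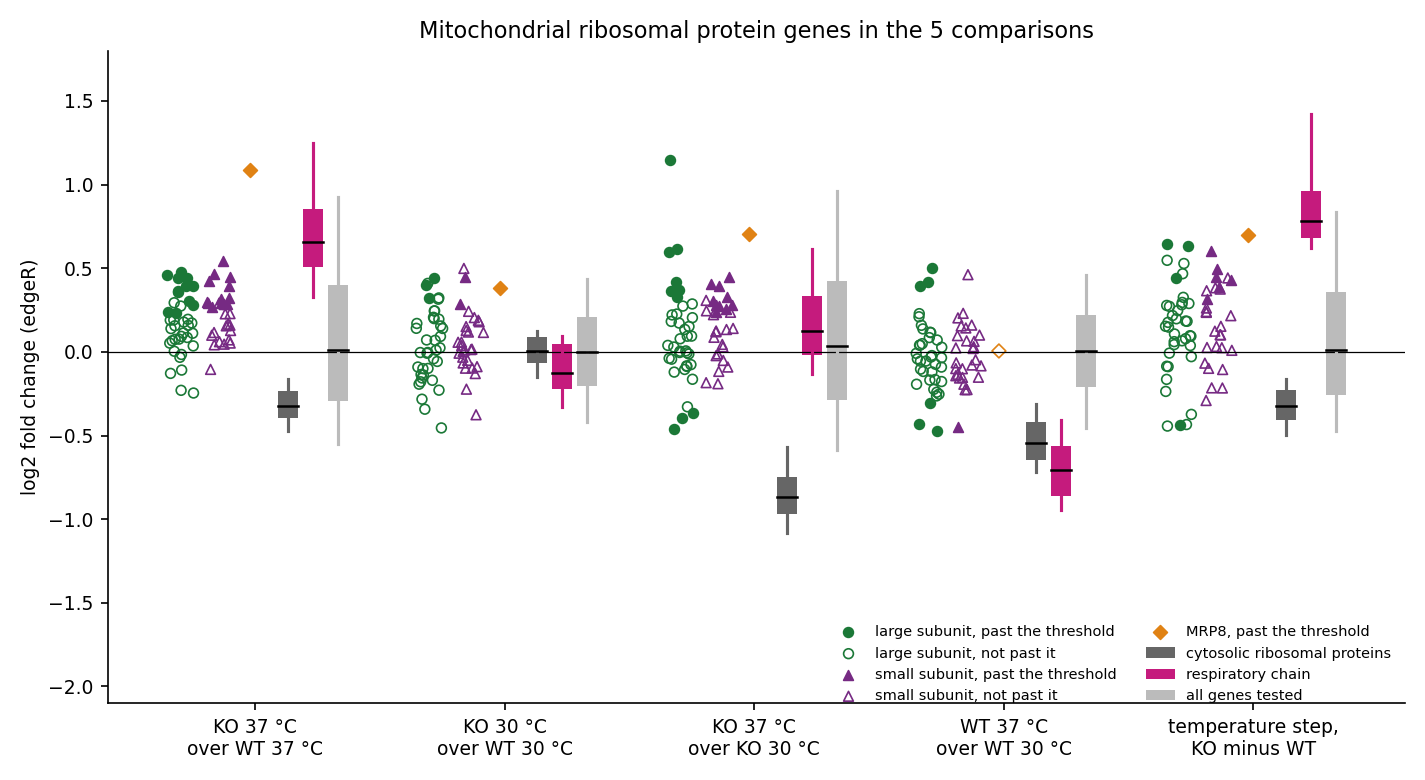
Log2 fold change (y axis, edgeR) of each member in the 5 comparisons (x axis), for large-subunit genes (green circles), small-subunit genes (purple triangles) and MRP8 (orange diamonds), filled where past the threshold. Bars give the interquartile range, lines the 10th to 90th percentile and black ticks the median of cytosolic ribosomal protein genes (dark grey), respiratory chain genes (pink) and all genes tested (light grey). The members cluster near 0 in every comparison, with medians from -0.04 to 0.19, while the cytosolic genes fell in both temperature comparisons.

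At 30 °C the knockout differed little from wild type in these genes. By edgeR's quasi-likelihood test with Benjamini-Hochberg adjustment 6 of 67 members were higher and 0 lower, while over all genes 14.6% were higher and 15.0% lower (29.6% in either direction). At an unadjusted p under 0.05, 11 were higher and 2 lower, and limma-voom and DESeq2 called 0 lower. The members' median log2 fold change was 0.02, beside -0.0031 over all genes, and reached 0.084 without replicate 2 of WT 30 °C. The 6 were MRPS16, MRPL36, MRPL4, MRP8, MRPL11 and MRP13.

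MRPS16 (bS16m) had 51.5 and 59.8 CPM in KO 30 °C and 40.4 and 41.3 CPM in WT 30 °C (log2 fold change 0.45 ± 0.11, adjusted p = 0.00777, edgeR). MRPL36 (bL31m) had 61.0 and 62.2 CPM in KO 30 °C and 42.8 and 47.7 CPM in WT 30 °C (0.44 ± 0.11, adjusted p = 0.00905, edgeR). MRPL4 (uL29m), whose bacterial counterpart lies at the tunnel exit, had 61.2 and 57.1 CPM in KO 30 °C and 49.1 and 40.7 CPM in WT 30 °C (0.40 ± 0.12, adjusted p = 0.0215, edgeR). In none of these 3 did the libraries of the groups overlap. MRP8 had 71.3 and 76.9 CPM in KO 30 °C and 55.8 and 57.8 CPM in WT 30 °C (0.38 ± 0.09). RSM19 (uS19m) at 0.50 ± 0.18 and MRP35 at 0.41 ± 0.21 had fold changes as large and did not pass. The lowest fold changes, none past the threshold, were those of MRPL25 (-0.45 ± 0.17), MRP17 (-0.38 ± 0.15), MRPL39 (-0.34 ± 0.22), MRP49 (-0.28 ± 0.16) and MRPL38 (uL14m, -0.23 ± 0.14). None of the 6 rises held under all 19 alternatives. A single member was higher without replicate 2 of KO 30 °C or without replicate 1 of WT 30 °C, and 3 by DESeq2. There were 2 falls without replicate 1 or 2 of KO 37 °C or replicate 2 of KO 30 °C.

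The temperature step in the knockout moved members in both directions. KO 37 °C libraries had 18 of 67 members higher and 3 lower than KO 30 °C libraries by edgeR's quasi-likelihood test with Benjamini-Hochberg adjustment, while over all genes 30.9% were higher and 28.2% lower (59.1% in either direction). The members' median log2 fold change was 0.12, against 0.04 over all genes. Without replicate 1 of KO 37 °C the members' median was 0.050, 0.029 above that of all genes, and it lay between that value and 0.16 over all libraries left out in turn. All 10 small-subunit genes past the threshold were higher, and of the large-subunit genes 7 were higher and 3 lower. The split between rises and falls depends on scaling. With libraries scaled by their totals alone 40 members were higher and 0 lower, but the median of all genes then stood at 0.27, and with all 8 libraries the members stood 0.09 above it under either scaling.

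MRP49 (mL61), a large-subunit protein of the m class, had the largest rise of any subunit gene in the 4 pairwise comparisons. It had 30.6 and 29.9 CPM in KO 37 °C and 12.3 and 15.0 CPM in KO 30 °C (log2 fold change 1.14 ± 0.14, adjusted p = 1.73e-05, edgeR). MRP8 rose by 0.71 ± 0.08 between the same groups. MRPL24 (bL28m) had 32.0 and 31.6 CPM in KO 37 °C and 20.5 and 21.1 CPM in KO 30 °C (0.61 ± 0.13, adjusted p = 0.00161, edgeR). MRPL25 (mL59) had 19.2 and 18.9 CPM in KO 37 °C and 12.3 and 12.9 CPM in KO 30 °C (0.60 ± 0.16, adjusted p = 0.00678, edgeR). MRP17 (bS6m) had 35.9 and 29.9 CPM in KO 37 °C and 20.7 and 27.3 CPM in KO 30 °C (0.45 ± 0.15, adjusted p = 0.0196, edgeR). In each of these 5 genes both KO 37 °C libraries lay above both KO 30 °C libraries.

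The 3 falls were all of large-subunit genes. MRPL20 (mL58) had 45.4 and 42.2 CPM in KO 37 °C and 62.6 and 57.9 CPM in KO 30 °C (-0.46 ± 0.12, adjusted p = 0.00407, edgeR). MRPL32 (bL32m), which is matured in the mitochondrion by the m-AAA protease before it joins the ribosome, had 23.2 and 24.1 CPM in KO 37 °C and 29.4 and 32.8 CPM in KO 30 °C (-0.39 ± 0.14, adjusted p = 0.0253, edgeR). MRPL51 had 48.5 and 45.4 CPM in KO 37 °C and 55.2 and 65.7 CPM in KO 30 °C (-0.37 ± 0.11, adjusted p = 0.0115, edgeR), and 323 of its bases overlap a reading frame on the other strand. MRPL37 at -0.33 ± 0.13 and MRPS16 at -0.19 ± 0.10 did not pass. None of the 3 falls passed with libraries scaled by their totals alone. There were 5 falls without replicate 1 of KO 37 °C and 1 without replicate 2 of KO 30 °C, and DESeq2 called 7 members higher. A fit of the 4 knockout libraries alone called 11 higher and 3 lower.

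**Figure D4:**
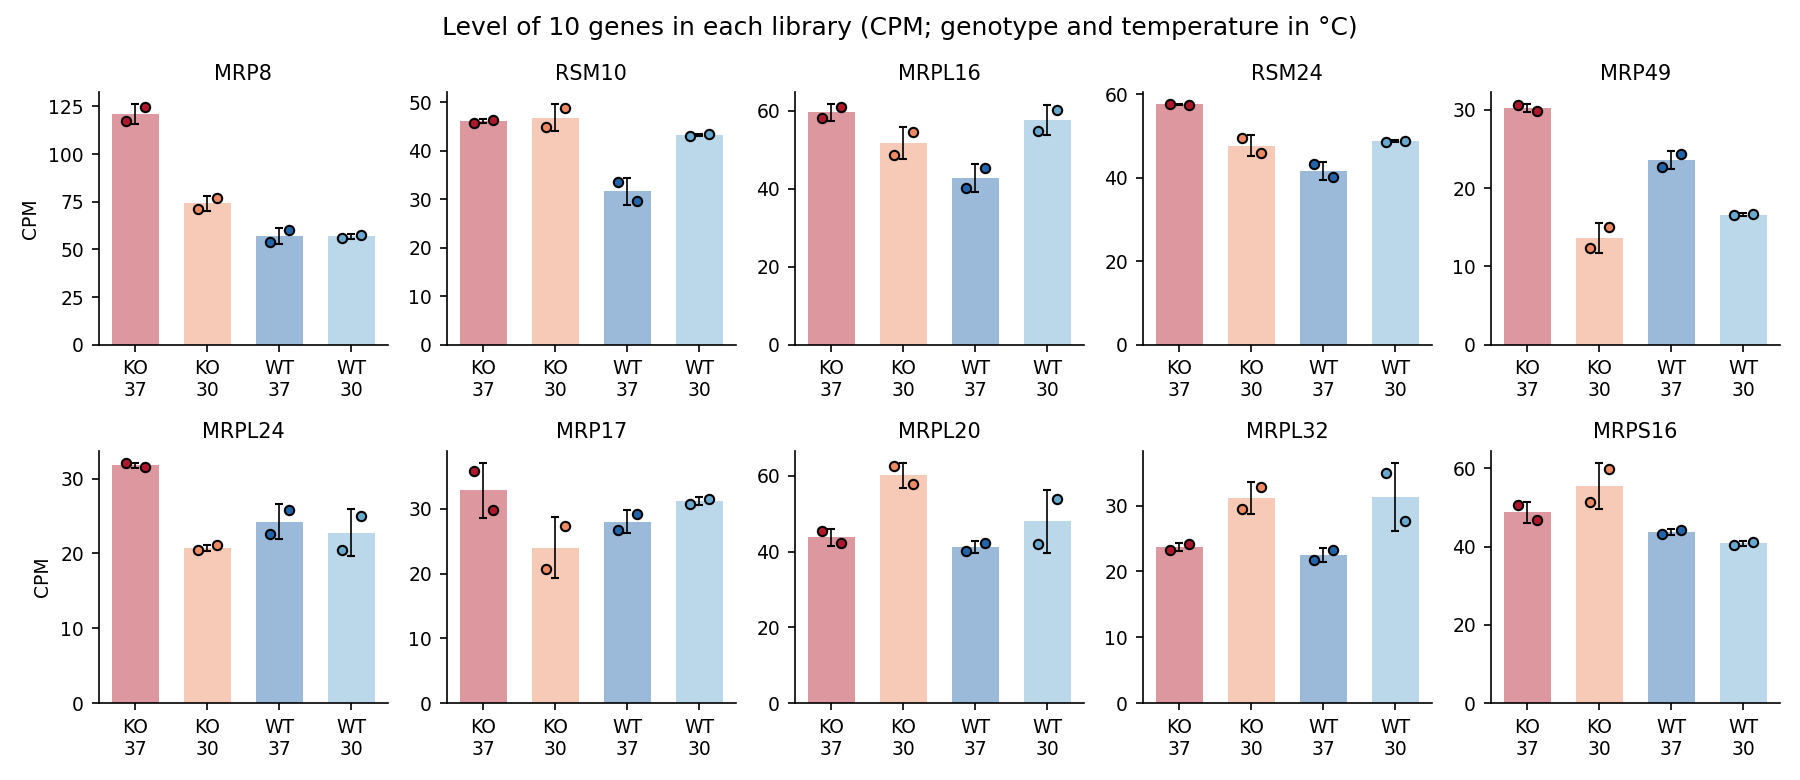
Level of 10 members in each library (points, y axis in CPM), with the mean (bars) and SD (error lines, n = 2) of KO 37 °C, KO 30 °C, WT 37 °C and WT 30 °C (x axis). MRP8 is highest in the KO 37 °C libraries at 117 and 125 CPM, RSM10 and MRPL16 are lowest in WT 37 °C, and MRPL32 is lower at 37 than at 30 °C in both genotypes.

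The same temperature step in wild type gave few calls among the members. Against WT 30 °C, WT 37 °C had 3 of 67 members higher and 4 lower by edgeR's quasi-likelihood test with Benjamini-Hochberg adjustment, while over all genes 15.7% were higher and 17.1% lower (32.8% in either direction). The members' median log2 fold change was -0.04, beside 0.01 over all genes, and its sign did not hold. It was 0.028 without replicate 2 of WT 30 °C, -0.075 without replicate 2 of WT 37 °C and 0.084 with libraries scaled by their totals alone. Under that last scaling the median of all genes was itself 0.13. The members' median minus that of all genes was -0.047 under both scalings, and 0.022 without replicate 2 of WT 30 °C. MRP49 was among the rises, with 22.7 and 24.3 CPM in WT 37 °C and 16.5 and 16.7 CPM in WT 30 °C (0.50 ± 0.15, adjusted p = 0.0187, edgeR). MRPL50 (bL9m) had 31.6 and 37.9 CPM in WT 37 °C and 26.8 and 25.4 CPM in WT 30 °C (0.42 ± 0.14, adjusted p = 0.0315, edgeR), and MRPL4 rose by 0.40 ± 0.12. RSM19 at 0.46 ± 0.18 and RSM23 at 0.23 ± 0.09 did not pass.

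The 4 falls in wild type included both genes that led the knockout's excess at 37 °C after MRP8. RSM10 had 33.5 and 29.6 CPM in WT 37 °C and 43.0 and 43.3 CPM in WT 30 °C (-0.45 ± 0.11, adjusted p = 0.00763, edgeR). MRPL16 had 40.2 and 45.3 CPM in WT 37 °C and 54.9 and 60.3 CPM in WT 30 °C (-0.43 ± 0.11, adjusted p = 0.00824, edgeR). MRPL32 changed by -0.47 ± 0.14 and MRPL10 (uL15m) by -0.31 ± 0.09, while MRPL49 (bL21m), at -0.26 ± 0.13, did not pass. These values come from the same WT 37 °C libraries as the comparison of genotypes at that temperature. None of the 7 calls held under all 19 alternatives. Without replicate 1 or 2 of WT 37 °C 1 member was higher and 1 lower, without replicate 1 of WT 30 °C 1 was higher and 3 lower, and without replicate 2 of WT 30 °C 0 were higher and 1 lower. DESeq2 called 0 higher and 1 lower, and scaling by library totals alone 8 higher and 1 lower. Over all genes DESeq2 called 565 higher and 686 lower of 5717, and totals alone 1497 and 596 of 5667.

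Whether the temperature step differed between the genotypes was tested as an interaction, the log2 step in the knockout minus that in wild type. The step was higher in the knockout for 10 of 67 members and lower for 1 by edgeR's quasi-likelihood test with Benjamini-Hochberg adjustment, while over all genes 16.4% were higher and 17.1% lower (33.5% in either direction). The members' median was 0.15, against 0.01 over all genes. It lay between 0.093, without replicate 1 of KO 37 °C, and 0.22, without replicate 1 of WT 30 °C, with 1 library left out. The higher ones comprised 3 large-subunit genes, 6 small-subunit genes and MRP8. With libraries scaled by their totals alone 19 were higher and 0 lower, with the members 0.14 above the median of all genes under either scaling.

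MRP8 had the largest value, 0.70 ± 0.13 (adjusted p = 0.00144, edgeR): its step was 0.71 in the knockout and 0.01 in wild type. The sign of the wild-type step changed when cytosolic ribosomal protein genes were left out of the scaling. MRP49 followed at 0.64 ± 0.21 (adjusted p = 0.0295, edgeR), with a rise in both genotypes that was larger in the knockout. MRPL16 was at 0.64 ± 0.15 (adjusted p = 0.00609, edgeR), with a step of -0.43 in wild type and 0.20 in the knockout, which did not pass on its own. MRP17 was at 0.60 ± 0.21, RSM24 at 0.50 ± 0.14 and MRPS35 (mS45) at 0.45 ± 0.15. MRPL7 (uL5m) was at 0.44 ± 0.13, RSM10 at 0.43 ± 0.15, MRPS9 (uS9m) at 0.39 ± 0.13 and MRP51 (bS1m) at 0.31 ± 0.11. MRPL51 was lower, at -0.44 ± 0.16 (adjusted p = 0.0476, edgeR), with its highest mean, 60.4 ± 7.42 CPM (SD, n = 2), in KO 30 °C. MRPL25 (0.55 ± 0.23), MRPL37 (-0.44 ± 0.20), MRPL4 (-0.43 ± 0.16), MRP35 (-0.37 ± 0.29) and MRPS16 (-0.29 ± 0.15) did not pass. MRP8 and MRPL16 passed under all 18 alternatives. There were 3 rises without replicate 1 or 2 of WT 37 °C or replicate 2 of WT 30 °C, 5 without replicate 1 of KO 30 °C, and 2 by DESeq2. Without replicate 1 of KO 37 °C 4 members were lower.

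Ratios within a library do not depend on scaling between libraries. For every 100 counts of the 138 cytosolic ribosomal protein genes, which build the ribosome of the cytosol, the 66 subunit genes had 3.85 and 4.05 counts in KO 37 °C, 1.91 and 2.09 in KO 30 °C, 2.72 and 2.73 in WT 37 °C, and 1.92 and 1.86 in WT 30 °C. All libraries of 37 °C lay above all of 30 °C, and those of KO 37 °C above those of WT 37 °C, while the KO 30 °C and WT 30 °C libraries lay side by side, 1.91 in the lower knockout library against 1.92 in the higher wild-type one. As shares of a library's counts, both sides of the ratio moved. The cytosolic genes made up 10.2 and 9.37% of counts in KO 37 °C, 15.2 and 15.0% in KO 30 °C, 11.0 and 11.4% in WT 37 °C, and 14.7 and 15.5% in WT 30 °C. The members made up 0.405 and 0.394%, 0.296 and 0.320%, 0.304 and 0.318%, and 0.288 and 0.295% in the same order. A share of counts depends on the other genes of the library. Scaled by TMM, the members summed to a mean of 3591 CPM in KO 37 °C and 3263 in KO 30 °C. In wild type the mean sum was 3054 CPM at 37 °C and 3118 at 30 °C, with no rise.

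**Figure D5:**
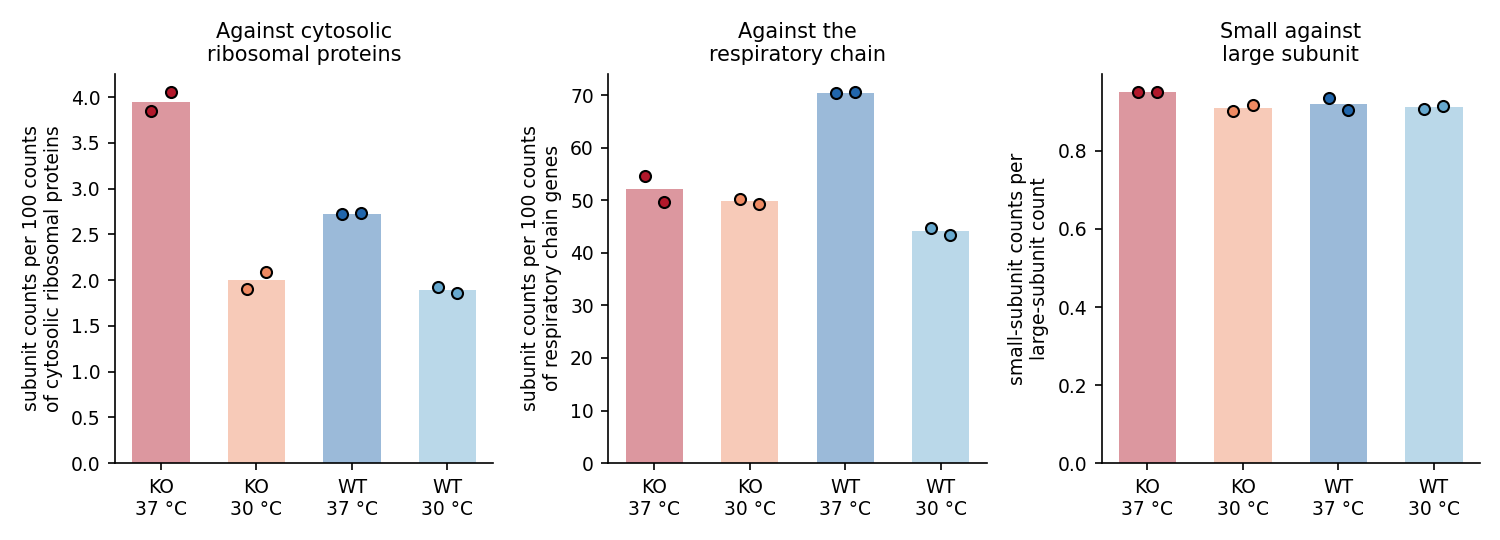
Counts of the 66 subunit genes for every 100 counts of cytosolic ribosomal protein genes (left) and of respiratory chain genes (middle), and small-subunit counts for each large-subunit count (right), in each library (points) with the group mean (bars), for KO 37 °C, KO 30 °C, WT 37 °C and WT 30 °C. The left ratio is highest in KO 37 °C, at 3.85 and 4.05, the middle ratio is highest in WT 37 °C, at 70.3 and 70.6, and the right ratio varies little. Respiratory chain genes had their lowest share of counts in WT 37 °C, at 0.425 and 0.442%.

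Small-subunit counts came to 0.950 and 0.950 for each large-subunit count in KO 37 °C, 0.903 and 0.917 in KO 30 °C, 0.935 and 0.904 in WT 37 °C, and 0.908 and 0.914 in WT 30 °C. The subunits thus kept nearly the same ratio, with the KO 37 °C libraries above the other 6. Against the respiratory chain, whose core the mitochondrial ribosome makes, the members' ratio was highest in WT 37 °C. It was 54.6 and 49.6 subunit counts for every 100 counts of 38 nuclear respiratory chain genes in KO 37 °C and 50.3 and 49.3 in KO 30 °C, against 70.3 and 70.6 in WT 37 °C and 44.8 and 43.5 in WT 30 °C. The respiratory chain genes made up 0.717 and 0.767% of counts in KO 37 °C and 0.575 and 0.634% in KO 30 °C. Their share was lowest in WT 37 °C, at 0.425 and 0.442%, against 0.631 and 0.666% in WT 30 °C. With 2 libraries a group, a permutation test of such a ratio cannot go below a two-sided p of 0.333, so none was run.

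The lists set beside the members moved as follows by the same edgeR test, each with counts higher and lower. Cytosolic ribosomal protein genes had 0 and 119 of 138 in the knockout at 37 °C, 6 and 8 at 30 °C, 0 and 133 for the temperature step in the knockout, 4 and 127 for that in wild type, and 0 and 79 for the interaction. Respiratory chain genes had 34 and 0 of 38, 0 and 8, 12 and 1, 0 and 36, and 37 and 0 in the same order of comparisons, led at 37 °C by the succinate dehydrogenase gene SDH1 (1.72 ± 0.12). Of 25 genes of the general stress response, 25 rose in the knockout at 37 °C, 12 in the knockout at 30 °C, 25 for the temperature step in the knockout, 18 for that in wild type and 20 for the interaction, with 0 falls. The small heat shock protein gene HSP26 led them at 37 °C, with 1057 CPM in KO 37 °C and 73.8 CPM in WT 37 °C. These lists of growth and stress state moved also for the temperature step in wild type, where only 3 of 67 members were higher and 4 lower. The part of these lists in the members' values was not tested.

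MRP8, the member apart, carries the stress element on the minus strand, as AGGGG on the plus strand, 194 bases before its start codon on chromosome XI. It is shown because MRP8 had the largest genotype difference and rose in both genotype comparisons. In all, 11 of the 67 members (16.4%) hold the element in the window searched, beside 21.7% of all genes. Its part in the level of MRP8 was not tested. The 30 bases around it, with the element in capitals, lie at chrXI:178309-178338 on the plus strand of R64.
MRP8: gatttcggagaaAGGGGgtggaggaaggag

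Among other genes of mitochondrial translation, the shares called differed between lists. Of 12 mitochondrial ribosomal protein genes with other names, 3 rose and 0 fell in the knockout at 37 °C (RML2, the uL2m gene, by 0.38 ± 0.08), 3 rose and 0 fell for the temperature step in the knockout, and 0 passed in the other 3 comparisons. Mitochondrial tRNA synthetase genes, which charge the tRNAs this ribosome uses, had 9 rises and 0 falls among 13 (69.2% higher, beside 30.5% of all genes) in the knockout at 37 °C, led by MSF1, for phenylalanine, with 40.6 CPM in KO 37 °C and 21.8 CPM in WT 37 °C (0.90 ± 0.14). In the other comparisons they had 1 and 2 at 30 °C, 8 and 0 for the step in the knockout (61.5% higher, beside 30.9% of all genes), 2 and 0 for that in wild type, and 4 and 0 for the interaction. The 12 translation factor genes had 5 and 1, 2 and 0, 4 and 0, 4 and 0, and 2 and 0 in the same order, with MEF2, which acts in ribosome recycling, up by 0.59 ± 0.10 in the knockout at 37 °C. The 12 assembly factor genes tested had 3 and 1, 3 and 1, 4 and 1, 1 and 0, and 1 and 2. Among them the methyltransferase gene MRM2 rose by 0.98 ± 0.14 for the step in the knockout. The 18 translational activator genes, whose products help single mitochondrial mRNAs to be translated, had 4 and 3, 1 and 6, 8 and 0 (44.4% higher for the step in the knockout), 2 and 1, and 6 and 0. Of these, PET111, the activator of COX2 translation, rose by 0.84 ± 0.15 for the step in the knockout. The 5 genes of mitochondrial transcription and RNA turnover had 0 and 1, 0 and 0, 0 and 1, 1 and 1, and 0 and 0, with ABF2, which packs mitochondrial DNA, lower by 0.53 on the log2 scale in WT 37 °C than in WT 30 °C. The 27 import genes had 4 and 9, 7 and 5, 2 and 9, 2 and 4, and 0 and 5, with the receptor gene TOM70 at -0.50 ± 0.06 in the knockout at 37 °C.

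PUF3 itself had 132 ± 3.43 CPM in KO 37 °C, 98.6 ± 7.45 in KO 30 °C, 202 ± 20.7 in WT 37 °C and 110 ± 8.79 in WT 30 °C (SD, n = 2 each). It was lower in the knockout at 37 °C, at -0.61 ± 0.09 (adjusted p = 6.4e-05, edgeR), and rose with temperature in the knockout by 0.42 ± 0.09 and in wild type by 0.87 ± 0.09. The interaction was -0.45 ± 0.13 (adjusted p = 0.0177, edgeR). Among all 821 tested genes with the downstream motif, 65 of them members, the median log2 fold change in the knockout at 37 °C was 0.09, against -0.01 in 4709 tested genes without it. For the step in the knockout these medians were 0.08 and 0.02, and for that in wild type 0.02 and 0.002. In the knockout at 30 °C they were 0.02 and -0.007. Whether these medians go with the level of PUF3 was not tested. HAP4, the limiting subunit of the Hap complex, had 311 ± 49.5 CPM in KO 37 °C and 245 ± 4.35 CPM in WT 37 °C (0.35 ± 0.10, adjusted p = 0.00733, edgeR), and HAP5 rose by 0.53 ± 0.15. HAP4 also rose for the step in the knockout (0.43 ± 0.10) and was lower in KO 30 °C than in WT 30 °C (-0.31 ± 0.10), with an interaction of 0.66 ± 0.14. HAP5 rose too at 30 °C (0.51 ± 0.18) and for the step in the knockout (0.42 ± 0.15). HAP1, HAP2 and HAP3 passed in none of the 5 comparisons, at log2 values between -0.21 and 0.20. VAR1, the subunit gene of mitochondrial DNA, had 2 counts in all 8 libraries and was not tested. The mitochondrially encoded side of this ribosome was not analysed here.

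Replicates of single members lay close together. The median absolute difference between the 2 libraries of a group was 0.12 in KO 37 °C, 0.11 in KO 30 °C and 0.13 in both wild-type groups on the log2 scale. The widest gaps were those of MRP35 in KO 37 °C (17.2 and 11.5 CPM), MRPL39 in KO 30 °C (17.7 and 11.4 CPM), MRPL39 in WT 37 °C (19.9 and 14.7 CPM) and MRPL23 (uL13m) in WT 30 °C (28.8 and 43.5 CPM). The smallest member change past the threshold in any of the 5 comparisons was 0.23, so a member that did not pass is not shown to be equal between groups.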

How the data were processed

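The deposited file holds raw read counts per gene, 1 column for each of 8 libraries, which the authors made with STAR and HTSeq on a genome named R64 and sacCer3, per the submitters' processing notes. The sources used here do not give the versions, the strand setting or the fate of multi-mapped reads. Total RNA was taken with Trizol and libraries were made with a Kapa mRNA kit, per the labels' protocols. Groups came from the sample titles. Genes were kept by edgeR's filter (minimum count 10, minimum total 15), which left 5667, and scaled by TMM. They were tested in edgeR 4.0.16 by the quasi-likelihood test in 1 model of 4 groups over 8 libraries, with 4 residual degrees of freedom, Benjamini-Hochberg adjustment and a threshold of 0.05. SE is the absolute log2 fold change divided by the root of F. limma 3.58.1 (voom), DESeq2 1.42.0, other scalings and filters, replicate blocks and leaving out each library were alternatives. They were run with R 4.3.3, Python 3.11.15, pandas 2.3.3, numpy 2.4.6 and matplotlib 3.10.9. Near-identical copies were sought with blastn 2.17.0, requiring 95% identity along 50% or more of a coding sequence. Names, coordinates and sequences are from RefSeq's R64 annotation, which matched 6008 of the 6692 genes. The 684 unmatched ones held 0.164% of counts and were not searched for overlaps. Named are the 5 highest and 5 lowest members of each comparison, those called against the direction of most, those past the interaction threshold, the 3 highest and lowest per kb in WT 30 °C and KO 37 °C, the widest replicate gaps and MRP8. Members, lists and motifs were chosen with earlier results of these data known, so their counts are descriptions and no test was made over a list.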

Additional observations from a re-analysis of the deposited data

Results flagged for a closer look

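For 11 members the temperature step differed between knockout and wild type by the interaction term of edgeR's quasi-likelihood test with Benjamini-Hochberg adjustment over all genes. These were 16.4% of the members, a lower share than the 33.5% of all genes. Only MRP8 and MRPL16 passed under all 18 alternatives. Steps below are given in the knockout first and in wild type second, on the log2 scale. MRP8 differed by 0.70 (0.71 and 0.01), MRP49 by 0.64 (1.14 and 0.50), MRPL16 by 0.64 (0.20 and -0.43) and MRP17 by 0.60 (0.45 and -0.16). RSM24 differed by 0.50 (0.27 and -0.23), MRPS35 by 0.45 (0.40 and -0.05), MRPL7 by 0.44 (0.37 and -0.07), RSM10 by 0.43 (-0.02 and -0.45), MRPS9 by 0.39 (0.24 and -0.15) and MRP51 by 0.31 (0.12 and -0.19). MRPL51, the one with a lower step in the knockout, differed by -0.44 (-0.37 and 0.07).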

How the results depend on the processing

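In the order knockout against wild type at 37 °C, the same at 30 °C, the step in the knockout, the step in wild type and the interaction, the members higher were 25, 6, 18, 3 and 10. DESeq2 called 10, 3, 7, 0 and 2 higher, with 1 lower for the step in wild type and 0 for the interaction. Over all genes DESeq2 called 1231, 555, 1215, 565 and 543 higher, of 5717 to 5967 tested. The main fit called 1731, 829, 1751, 891 and 929 of 5667 genes higher. Library totals alone gave 40 higher and 0 lower for the step in the knockout, 8 and 1 for that in wild type, and 19 and 0 for the interaction. Over all 5667 genes that scaling gave 2803, 1497 and 1197 higher in the same comparisons. Median-of-ratios factors and TMM without cytosolic ribosomal protein genes gave 5 lower for the step in the knockout and 2 for the interaction, where no filter and a minimum of 5 CPM gave 0. Fits of the 4 libraries compared gave 11 higher for the step in the knockout and 5 for that in wild type. Over all genes those fits gave 1529 of 5623 and 1175 of 5568 higher. Without MRP8, an alternative chosen after seeing the data, the counts were 24, 5, 17, 3 and 9. With 1 library left out the members' median was 0.11 to 0.22, 0.020 to 0.084, 0.050 to 0.16, -0.075 to 0.028 and 0.093 to 0.22. In those fits the lone library is assumed to vary like the others. Same-numbered deviations were weakly correlated between groups, at -0.111 to 0.114 over all genes and -0.139 to 0.226 over the members. These values do not settle whether replicate numbers pair the libraries. A replicate block gave 26, 6, 20, 3 and 12 higher with 2 lower for the interaction, and a replicate block within genotype 23, 7, 20, 3 and 13 with 2 lower. That last model takes the comparisons of genotypes at the level of replicate 1, so they are not the same comparisons. The members' median was then 0.25 at 37 °C and 0.10 at 30 °C.

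The members' median changed sign for the step in wild type, from -0.075 to 0.028 with a library left out and at 0.084 with library totals alone. The single genes whose sign changed had not passed the test. The wild-type step of MRP8 was -0.0074 with TMM without cytosolic genes and ran from -0.064 to 0.088 with a library left out. Scaled by totals alone, MRPL35 was 0.016 and RSM23 0.021 in the knockout at 37 °C, and MRPS16 0.046 for the step in the knockout. MRPL37 in the knockout at 37 °C ran from -0.34 to 0.028 with a library left out. Under totals alone the median of all genes moved up too. It was 0.13 for the step in wild type, 0.14 in the knockout at 37 °C and 0.27 for the step in the knockout. The members' median minus that of all genes was -0.047 for the step in wild type, with totals alone as with TMM. The cause of the other shifts was not tested. At this depth and with 2 libraries a group, the smallest member change past the threshold was 0.23.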
